A study of Mus musculus with 16 samples.

Results

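The mouse mitochondrial genome encodes 37 genes, and all 37 were rows of the count table, chosen as the rows whose gene name starts with mt- out of 55450 rows. They comprised 2 rRNA genes, 22 tRNA genes and 13 protein-coding genes. The RNA came from CD4+ and CD8+ tumor-infiltrating lymphocytes (TILs) of s.c. B16F10 tumors, a mouse melanoma line, grown in WT and Sirt2-/- mice. SIRT2 is an NAD+-dependent deacetylase, and the study asked how its loss affects signaling downstream of the T cell receptor in tumors. Each of the 4 groups (WT CD4, Sirt2-/- CD4, WT CD8, Sirt2-/- CD8) had 4 libraries, 16 in all. The Sirt2-/- mice were of the germline knockout strain B6.129-Sirt2tm1.1Fwa/J, so that host cells other than T cells lack the gene too, and WT mice were C57BL/6J. Mice of 7 to 8 weeks and both sexes were used in the study, and the labels give neither age nor sex per library. TILs were purified with CD3ε beads. The labels do not say whether CD4 and CD8 libraries of the same number come from the same mouse, or whether the 4 libraries of a group come from separate mice. P-values therefore measure only the spread between these libraries. The comparisons share libraries, since each group enters a genotype and a cell type comparison.

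Mitochondrial DNA is transcribed along both strands into long precursors, from which tRNAs are cut out at the borders of the rRNAs and mRNAs. The rRNAs build the mitochondrial ribosome, the tRNAs read the mitochondrial code, and the mRNAs encode core subunits of complexes I, III, IV and V of oxidative phosphorylation. All remaining subunits, the ribosomal proteins and the machinery for mitochondrial transcription and RNA turnover are made from nuclear genes. In T cells, activation is known to raise mitochondrial mass and translation, and TILs are known for altered mitochondria.

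Counts on genes summed to 28000949 to 62407851 per library. Fewer genes had a count in Sirt2-/- CD4 replicate 4 (8169), WT CD4 replicate 1 (12587) and WT CD8 replicate 1 (14411) than in the other 13 libraries (17730 to 22138), and results that rest on these 3 libraries are given with and without them. Sirt2 measured 51.9 ± 19.6 CPM (counts per 1000000 counts on genes; SD, n = 4) in WT CD4, 8.48 ± 5.70 in Sirt2-/- CD4, 38.8 ± 9.40 in WT CD8 and 8.21 ± 1.82 in Sirt2-/- CD8 libraries, with the same n. Cd3e ranged from 206 to 625 CPM. Cd4 ranged from 344 to 639 CPM in CD4 and from 0 to 4.94 CPM in CD8 libraries, and Cd8a from 950 to 1251 CPM in CD8 and from 0.036 to 34.6 CPM in CD4 libraries. The 7 melanoma markers summed to 124 CPM in WT CD4 replicate 1 and to 4.45 to 24.98 CPM in the others. WT CD4 replicate 4 had the lowest CPM of 9 of the 13 mitochondrial mRNAs among the 16 libraries, ties included. In it the rows Gm26917 and Gm23935 took 10.01% and 11.75% of counts, the highest of the 16 libraries for both. The 4 Y-linked genes summed to 6.07 to 306 CPM in the WT libraries and to at most 0.468 CPM in the Sirt2-/- libraries, so genotype cannot be told apart from the presence of Y-linked transcripts in either cell type.

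A read whose sequence occurs in several genes cannot be assigned to 1 of them by its sequence. The mitochondrial sequences of 5 mRNA genes recur almost unbroken in a run of pseudogenes on nuclear chromosome 1. The first 60 bases of mt-Co2 (chrM:7013-7072, + strand), which encodes a complex IV subunit, and of its copy Gm28661 (chr1:24615506-24615565, - strand) are identical, and the whole 681-base alignment holds 0 mismatches. The pair mt-Nd3 (chrM:9459-9490, + strand) and Gm28438 (chr1:24613088-24613119, - strand) and the pair mt-Co1 (chrM:6390-6422, + strand) and Gm29216 (chr1:24616156-24616188, - strand) each differ at 1 base, shown in capitals. All coordinates are of GRCm38, and sequences are those of GENCODE M21 transcripts.
mt-Co2: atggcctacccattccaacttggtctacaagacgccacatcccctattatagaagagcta
Gm28661: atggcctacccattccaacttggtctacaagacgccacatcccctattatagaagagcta
mt-Nd3: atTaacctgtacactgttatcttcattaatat
Gm28438: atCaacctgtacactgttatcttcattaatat
mt-Co1: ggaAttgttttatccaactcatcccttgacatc
Gm29216: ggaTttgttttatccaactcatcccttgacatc

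Every 100-base window of each gene, the length of 1 read, was compared with all other annotated transcripts. The share of windows found unchanged elsewhere was 99.5% in mt-Co2 (chrM:7013-7696), 99.5% in mt-Atp6 (chrM:7927-8607), 99.9% in mt-Co3 (chrM:8607-9390), 98.5% in mt-Nd4l (chrM:9877-10173) and 97.6% in mt-Nd3 (chrM:9459-9806). It was 60.8% in mt-Nd4 (chrM:10167-11544), 30.8% in mt-Co1 (chrM:5328-6872) and 3.20% in mt-Nd2 (chrM:3914-4951). No window recurred in mt-Nd1 (chrM:2751-3707), mt-Nd5 (chrM:11742-13565), mt-Nd6 (chrM:13552-14070), mt-Cytb (chrM:14145-15288), mt-Rnr1 (chrM:70-1024) or mt-Rnr2 (chrM:1094-2675).

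The 5 genes with at least 90% of windows shared had median counts of 3 to 533.5 per library and at most 1212 counts in any library. The other 7 mRNA genes, leaving aside mt-Atp8, had medians of 5007.5 to 83457.5 counts and are called the 7 well-counted mRNAs. The 7 annotated copies on chromosome 1 had medians of 2 to 22 counts, so few counts stood on the copies as well. mt-Atp8 (chrM:7766-7969), the short subunit of complex V, had 0 to 8 counts, and no window of it recurred in another annotated transcript. Nuclear sequence outside annotated transcripts was not searched, so an unannotated copy of mt-Atp8 would have been missed. mt-Atp8 lies between mt-Co2 and mt-Atp6 and shares 43 bases with mt-Atp6. The latter starts inside mt-Atp8 at the codon shown in capitals in its last 60 bases (chrM:7910-7969).
mt-Atp8: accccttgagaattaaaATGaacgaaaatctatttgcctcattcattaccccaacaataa

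Values of mt-Co2, mt-Co3, mt-Atp6, mt-Nd3 and mt-Nd4l, which share nearly all their sequence, and of mt-Atp8, which had at most 8 counts, are reported as uncertain. mt-Nd4 shared 60.8% of its windows and had a median of 14292 counts. How multi-mapped reads were treated in the counting was not given in the sources used here, and the part of shared sequence in the low counts was not tested.

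**Figure D1:**
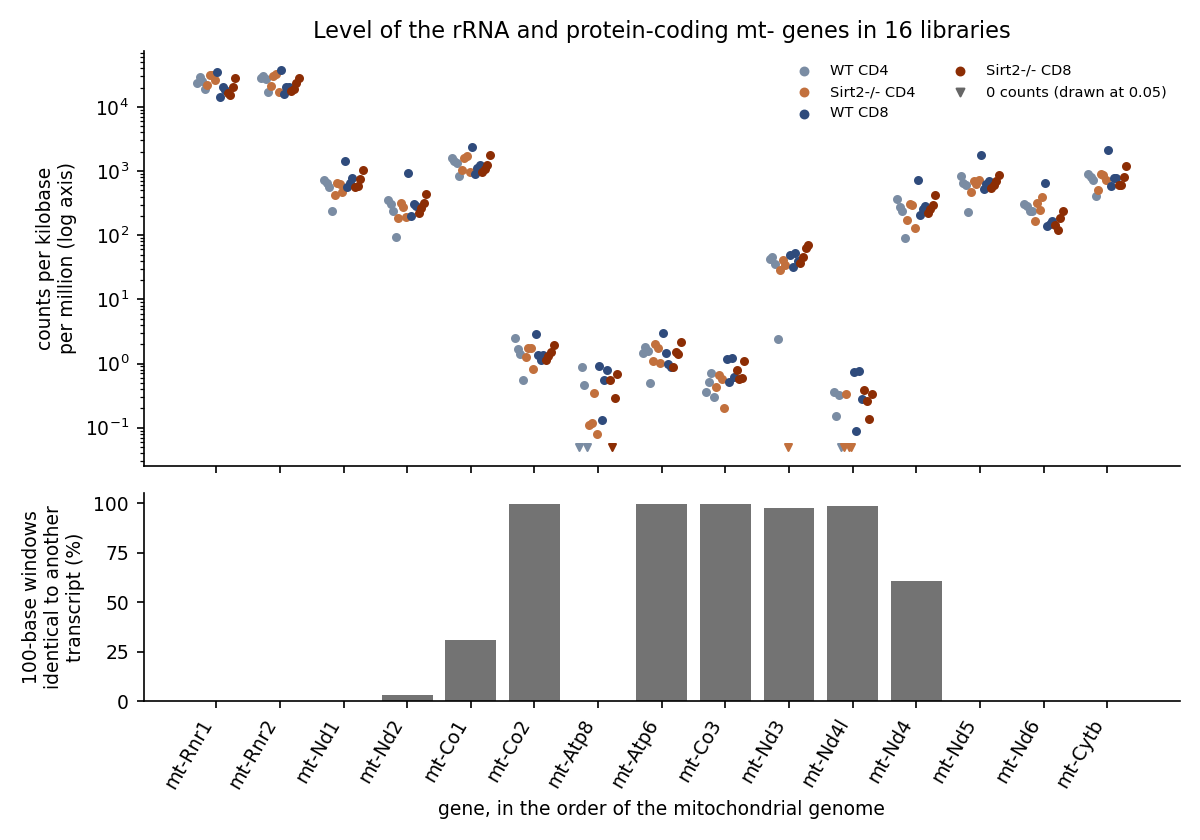
Upper panel, level of the 2 rRNA and 13 protein-coding genes in each of the 16 libraries in RPKM (log axis), with libraries colored by group and triangles at 0.05 marking 0 counts. Lower panel, percentage of 100-base windows of each gene that recur unchanged in another annotated transcript. The 5 genes over 97% in the lower panel, and mt-Atp8, which is at 0% there, lie below all other genes in the upper panel.

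In RPKM (CPM divided by gene length in kilobases), the rRNAs stood far above all mRNAs. mt-Rnr2, the large-subunit rRNA, averaged 24250 (15930 to 38170 over 16 libraries) and mt-Rnr1, the small-subunit rRNA, 23600 (14170 to 35210). These are levels after rRNA depletion during library preparation. The ranges of both rRNAs overlapped. By group mean, mt-Rnr1 ranked above mt-Rnr2 in Sirt2-/- CD4 libraries while the reverse held in the other 3 groups. In Sirt2-/- CD4 replicates 1 to 4, mt-Rnr1 measured 21740, 31710, 30970 and 26710, and mt-Rnr2 21140, 30340, 32580 and 17270. Replicate 4, a library with few genes, thus had by far the widest gap, and replicate 3 had the reverse order.

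Among mRNAs the order of mean levels on the same scale was mt-Co1 (1327), mt-Cytb (834), mt-Nd5 (704), mt-Nd1 (669), mt-Nd2 (308), mt-Nd4 (285) and mt-Nd6 (249). mt-Co1 encodes the catalytic subunit of complex IV, mt-Cytb the mitochondrial subunit of complex III, and the others belong to complex I. The first 4 kept the top 4 mRNA ranks in all 4 groups, with mt-Nd5 and mt-Nd1 changing places in Sirt2-/- CD8 libraries. The ranges of neighbours in this order overlapped throughout, for example 825 to 2338 for mt-Co1 and 402 to 2166 for mt-Cytb. The coefficient of variation of CPM over the 16 libraries was 27.1% for mt-Rnr1, 27.3% for mt-Rnr2 and 30.3% for mt-Co1, and it rose to 52.6% for mt-Nd6 and 59.9% for mt-Nd2.

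mt-Nd6 is the 1 protein-coding gene of the minus strand, and its base composition sets it apart from the mRNAs of the plus strand. Its mRNA held 28.1% G and 5.97% C, whereas G made up 5.88% to 16.1% and C at least 22.1% of the other 12. The first 60 bases of mt-Nd6 (chrM:14011-14070, - strand) and of mt-Nd1 (chrM:2751-2810, + strand), with the start codon in capitals, show the contrast. Both are complex I genes whose values in the cell type comparison are given below.
mt-Nd6: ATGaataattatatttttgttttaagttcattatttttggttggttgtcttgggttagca
mt-Nd1: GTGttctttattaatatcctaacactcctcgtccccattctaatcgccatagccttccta

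tRNA genes had few counts, and whether capture or counting kept them low was not tested. The 22 tRNA genes are 59 to 75 bases long, shorter than a read, and together took 0 to 0.00466% of counts. Of these genes, 9 had no count in any library, and mt-Ty, the tRNA for tyrosine (chrM:5260-5326, - strand), was the 1 tRNA with a median above 100 counts (516). Its gene lies 1 base from the start of mt-Co1 on the opposite strand, and its sequence is given because it is the 1 tRNA with enough counts for a comparison.
mt-Ty: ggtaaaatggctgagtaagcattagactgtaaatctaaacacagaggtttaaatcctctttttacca

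None of the 22 tRNA genes, nor mt-Nd3, had a count in Sirt2-/- CD4 replicate 4, although no library had more counts in all. A count of 0 there allows up to 3 counts for a gene, a limit that covers counting error only. The other 15 libraries had counts on 2 to 10 tRNA genes, from 454 to 1503 counts in all.

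All mt- genes together took 7.33%, 8.25%, 7.26% and 4.76% of counts in WT CD4 replicates 1 to 4 and 5.82%, 8.47%, 8.74% and 5.75% in Sirt2-/- CD4 replicates 1 to 4. They took 10.7%, 4.29%, 5.63% and 5.58% in WT CD8 and 4.84%, 4.99%, 6.28% and 8.07% in Sirt2-/- CD8 replicates 1 to 4. The 4 groups overlapped, and both the highest and the lowest share of the 16 libraries came from WT CD8. In bulk RNA, fewer cells with many mitochondria and less mitochondrial RNA per cell cannot be told apart. The rRNAs made up 87.8% to 94.2% of the mitochondrial counts.

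Loss of SIRT2 was not accompanied by a detectable change of any mitochondrial gene in either cell type. By edgeR (quasi-likelihood F-test), 0 of the 18 mt- genes that passed the filter in CD4 TILs and 0 of the 19 in CD8 TILs reached an adjusted p below 0.05. None of them had an unadjusted p below 0.05, and DESeq2 called 0 as well. Over all genes, edgeR called 0.0% of 15070 genes in CD4 and 0.00654% of 15302 genes in CD8 TILs, the latter being Sirt2 alone (log2 fold change -2.22 ± 0.21 SE, edgeR adjusted p = 0.00663). The call was lost without Sirt2-/- CD8 replicate 1 or 4 (edgeR adjusted p = 0.0570 and 0.0620). In CD4 TILs the log2 fold change of Sirt2 was -2.60 ± 1.26 (SE, edgeR adjusted p = 1.0). Without the 2 CD4 libraries with few genes Sirt2 was called lower in CD4 TILs as well (-1.95 ± 0.18, SE, edgeR adjusted p = 0.00163).

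The rRNAs illustrate the spread. mt-Rnr1 measured 22270, 28300, 24640 and 18150 CPM in WT CD4 replicates 1 to 4 and 20760, 30280, 29580 and 25510 CPM in Sirt2-/- CD4 replicates 1 to 4, and these groups overlapped. Its log2 fold change in CD4 TILs was 0.22 ± 0.19 (SE, edgeR adjusted p = 1.0), and that of mt-Rnr2 was 0.02 ± 0.22 (SE, edgeR adjusted p = 1.0).

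mt-Co1 measured 2430, 2244, 2102 and 1275 CPM in WT CD4 and 1613, 2496, 2640 and 1495 CPM in Sirt2-/- CD4 replicates 1 to 4. The 2 highest of these 8 values were from Sirt2-/- and the lowest was from a WT library, with overlap, and the log2 fold change was 0.07 ± 0.21 (SE, edgeR adjusted p = 1.0). Log2 fold changes of the 7 well-counted mRNAs ranged from -0.05 to 0.18 in CD4 TILs, with a median of 0.07 against -0.11 over all genes tested.

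In CD8 TILs all 7 of these mRNAs had log2 fold changes below 0 in Sirt2-/- against WT libraries (-0.64 to -0.12, SE 0.28 to 0.47), and none was called. A single WT library set these values. mt-Co1 measured 3612, 1397, 1718 and 1929 CPM in WT CD8 replicates 1 to 4 and 1510, 1647, 1944 and 2743 CPM in Sirt2-/- CD8 replicates 1 to 4. WT CD8 replicate 1 had the highest CPM of 10 of the 13 mRNAs among all 16 libraries. Without it, all 7 mRNAs had log2 fold changes above 0 (0.15 to 0.28) and both rRNAs as well (0.24 and 0.26, against -0.08 and -0.06 with it), again with none called (lowest edgeR adjusted p = 1.0).

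No mt- gene that passed the filter had genotype groups that did not overlap in CPM. Such separation was seen for 1.28% of all genes tested in the upward and 1.53% in the downward direction in CD4 TILs, and for 1.48% and 1.45% in CD8 TILs. The genotype effect did not differ detectably between cell types: of 17270 genes tested for the interaction edgeR called 0 (0.0%), DESeq2 called 2, and no mt- gene was among either. The interaction log2 values of the mRNAs that passed the filter ranged from -0.75 (mt-Nd6) to 0.58 (mt-Nd3).

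**Figure D2:**
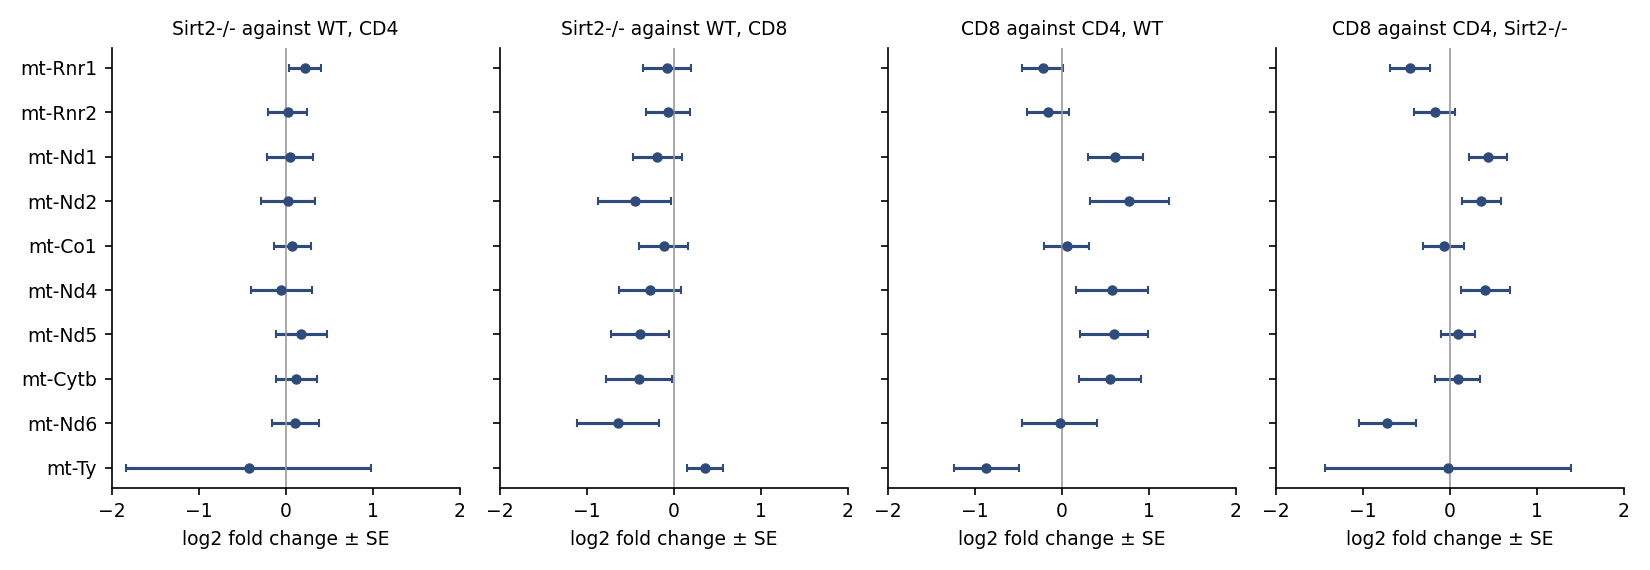
Log2 fold change (point) with its standard error (bar) from edgeR for both rRNAs, the 7 well-counted mRNAs and mt-Ty in the 4 comparisons, 4 libraries a group. The 7 mRNAs lie between -0.05 and 0.18 in CD4 and between -0.64 and -0.12 in CD8 TILs for genotype, and in both cell type comparisons mt-Nd1, mt-Nd2 and mt-Nd4 lie above 0 and both rRNAs below it.

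Between CD8 and CD4 TILs the mitochondrial share of all counts overlapped in both genotypes, and the mean share of mRNA within the mitochondrial counts was higher in CD8 libraries. Protein-coding genes took 12.2%, 9.64%, 9.15% and 10.1% of mitochondrial counts in WT CD8 replicates 1 to 4, against 9.23%, 7.10%, 7.35% and 5.73% in WT CD4. In Sirt2-/- mice they took 9.01%, 9.46%, 9.15% and 9.75% in CD8 and 6.85%, 7.51%, 7.11% and 8.10% in CD4 replicates 1 to 4. The groups did not overlap in Sirt2-/- mice, and in WT mice CD4 replicate 1 alone reached into the CD8 range. The means differed by 1.40 times in WT and 1.26 times in Sirt2-/- libraries. Sums over genes were not tested, neither as an amount nor as a make-up. Because the libraries were rRNA-depleted, the mRNA share can depend on how much rRNA was left in each, which was not tested.

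The ratio of neighbouring genes of 1 strand was also compared. mt-Nd1, a core subunit of complex I, follows mt-Rnr2 on the same strand with the gene of the leucine tRNA mt-Tl1 between them. The ratio of mt-Nd1 to mt-Rnr2 counts was 0.0157, 0.0128, 0.0129 and 0.00844 in WT CD4 and 0.0227, 0.0211, 0.0193 and 0.0226 in WT CD8 replicates 1 to 4. In Sirt2-/- mice it was 0.0121, 0.0129, 0.0116 and 0.0166 in CD4 and 0.0188, 0.0186, 0.0195 and 0.0218 in CD8 replicates 1 to 4. All 8 CD8 libraries were above all 8 CD4 libraries, in WT by 1.72 times and in Sirt2-/- by 1.48 times between means. The ratio was chosen after the values were seen and was not tested, and it too can depend on the rRNA depletion of each library.

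**Figure D3:**
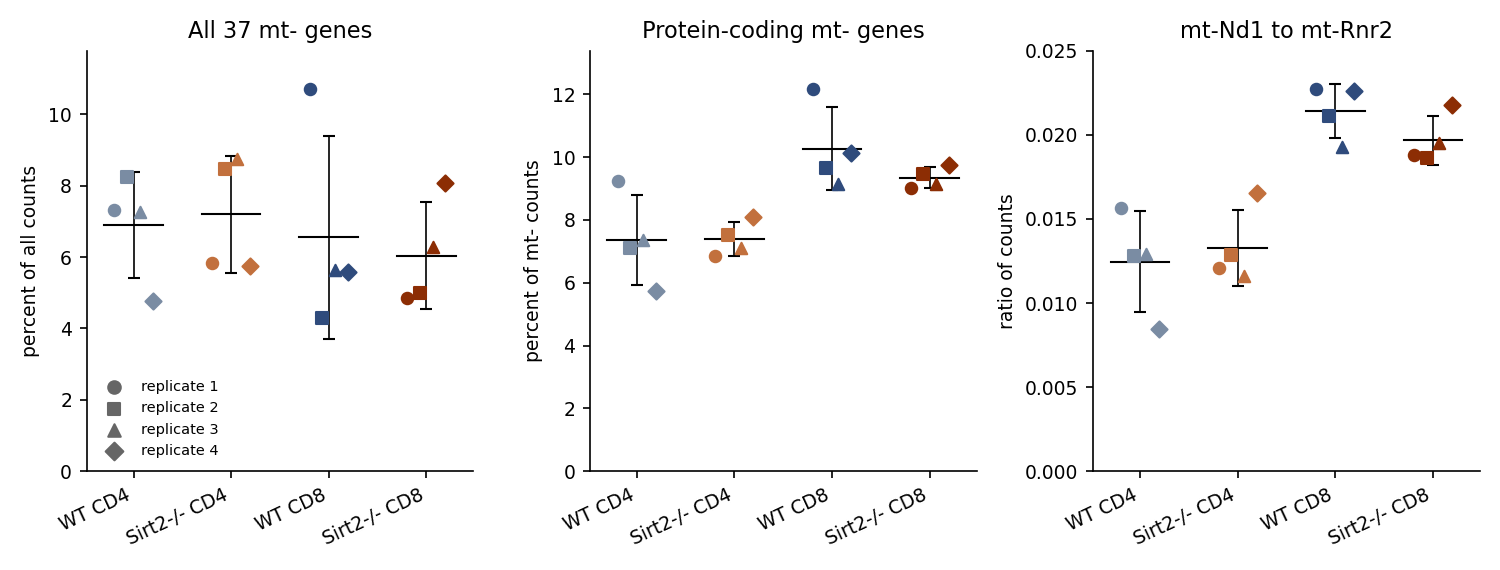
Left, percentage of all counts on the 37 mt- genes. Middle, percentage of mitochondrial counts on the 13 protein-coding genes. Right, ratio of mt-Nd1 to mt-Rnr2 counts. Each symbol is a library, shapes mark the replicate number, and bars give mean and SD (n = 4). The groups overlap on the left, and on the right all 8 CD8 libraries lie above all 8 CD4 libraries. Values in the middle and on the right can depend on the rRNA depletion of each library.

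As single genes against the whole library, no mt- gene passed the test with all libraries. In WT TILs edgeR called 0 of 19 mt- genes between CD8 and CD4, against 11.9% of 14892 genes (4.89% higher and 6.96% lower in CD8), and 1 mt- gene, mt-Ty, had an unadjusted p below 0.05. In Sirt2-/- TILs it called 0 of 18 mt- genes, against 2.24% of 15787 genes (0.918% higher and 1.32% lower), and none had an unadjusted p below 0.05. DESeq2 called 0 mt- genes in both. No mt- gene that passed the filter separated CD8 from CD4 libraries without overlap in CPM, whereas 12.8% of genes did so upward and 9.48% downward in WT, and 14.6% and 6.75% in Sirt2-/- TILs.

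mt-Nd1 measured 693, 617, 550 and 226 CPM in WT CD4 and 1373, 532, 616 and 743 CPM in WT CD8 replicates 1 to 4. In Sirt2-/- mice it measured 405, 617, 599 and 453 CPM in CD4 and 533, 568, 726 and 991 CPM in CD8 replicates 1 to 4. In each genotype 2 CD8 libraries stood above every CD4 library, and the others overlapped. Its log2 fold change was 0.62 ± 0.32 in WT (SE, edgeR adjusted p = 0.272) and 0.44 ± 0.22 in Sirt2-/- TILs (SE, edgeR adjusted p = 0.519). That of mt-Co1 was 0.06 ± 0.26 in WT (SE, edgeR adjusted p = 0.931) and -0.07 ± 0.23 in Sirt2-/- TILs (SE, edgeR adjusted p = 0.998). Without WT CD8 replicate 1 the log2 fold change of mt-Nd1 in WT TILs was 0.31. The median of the 7 well-counted mRNAs then went from 0.58 to 0.07. Over all single libraries left out, mt-Nd1 ranged from 0.31 to 0.84 in WT and from 0.24 to 0.55 in Sirt2-/- TILs.

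The rRNAs went the other way, with values short of the threshold. mt-Rnr1 measured 33630, 13540, 19230 and 17280 CPM in WT CD8 replicates 1 to 4, of which replicates 2 and 4 were below all WT CD4 values given above and replicate 1 was above them. It measured 15710, 14590, 19870 and 27330 CPM in Sirt2-/- CD8 replicates 1 to 4, of which 3 were below all Sirt2-/- CD4 libraries. The log2 fold change of mt-Rnr1 was -0.22 ± 0.24 in WT (SE, edgeR adjusted p = 0.643) and -0.46 ± 0.23 in Sirt2-/- TILs (SE, edgeR adjusted p = 0.538), and that of mt-Rnr2 was -0.16 and -0.18.

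mt-Nd6, the minus-strand mRNA for a complex I subunit, was the member whose call depended most on 1 library. It measured 160, 148, 124 and 125 CPM in WT CD4 and 337, 72.1, 79.1 and 86.0 CPM in WT CD8 replicates 1 to 4. The CD8 libraries 2 to 4 were below every CD4 library, and CD8 replicate 1 was the highest of all 16. With all libraries the log2 fold change was -0.02 ± 0.43 (SE, edgeR adjusted p = 0.984). Without WT CD8 replicate 1 it fell by 0.82 ± 0.14 on the log2 scale (SE, edgeR adjusted p = 0.00517) and was the 1 mt- gene called, where edgeR called 11.8% of 15730 genes.

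Without WT CD4 replicate 1 as well, mt-Nd6 (-0.76 ± 0.13, SE, edgeR adjusted p = 0.00131) and mt-Rnr1 (-0.51 ± 0.15, SE, edgeR adjusted p = 0.0261) were called lower in CD8, beside 28.0% of 15694 genes. In Sirt2-/- TILs mt-Nd6 measured 85.9, 162, 126 and 206 CPM in CD4 and 73.8, 62.3, 96.8 and 126 CPM in CD8 replicates 1 to 4, with overlap. Its log2 fold change there was -0.72 ± 0.33 (SE, edgeR adjusted p = 0.457), and -0.45 without Sirt2-/- CD4 replicate 4.

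mt-Ty measured 27.3, 10.6, 20.1 and 8.55 CPM in WT CD4 and 8.62, 8.08, 8.09 and 12.1 CPM in WT CD8 replicates 1 to 4, and the groups overlapped. The log2 fold change was -0.87 ± 0.37 (SE, edgeR adjusted p = 0.176). In Sirt2-/- mice it measured 14.9, 17.3, 16.3 and 0 CPM in CD4 and 11.7, 11.8, 11.9 and 11.3 CPM in CD8 replicates 1 to 4. CD4 replicate 4, at 0, was the library without any tRNA count, and the log2 fold change with it was -0.02 ± 1.41 (SE, edgeR adjusted p = 0.999). Without it, mt-Ty was lower in every CD8 library than in every CD4 library (-0.45 ± 0.15, SE, edgeR adjusted p = 0.0477) and was the 1 mt- gene called, beside 25.4% of 16703 genes.

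Shares among the 13 mRNAs do not depend on the size of the library, so each mRNA was also compared as a percentage of their summed counts, with an exact two-sided permutation test over libraries. With 4 libraries against 4 the smallest p is 0.0286, and p-values were adjusted over 52 tests. No share passed after adjustment. A few tests at the smallest p cannot pass when 52 are adjusted together, so this outcome was nearly fixed in advance. The smallest p was reached by 6 tests, all between cell types. The shares of a library sum to the whole, so these tests are not independent. mt-Co1 took 35.95%, 38.3%, 39.5% and 46.7% of mRNA counts in WT CD4 and 27.7%, 33.8%, 33.4% and 34.1% in WT CD8 replicates 1 to 4, without overlap (difference of means -7.85 percentage points, exact permutation p = 0.0286, adjusted p = 0.248). In Sirt2-/- mice it took 40.5%, 39.2%, 42.5% and 32.1% in CD4 and 34.6%, 34.9%, 33.9% and 34.9% in CD8 replicates 1 to 4, and CD4 replicate 4 lay below all CD8 libraries. Without WT CD4 replicate 4 the difference of means in WT TILs was -5.66 percentage points.

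For mt-Nd1 the share was 10.2%, 9.70%, 9.63% and 9.71% in Sirt2-/- CD4 and 12.2%, 12.1%, 12.6% and 12.6% in Sirt2-/- CD8 replicates 1 to 4, the tightest separation among the mRNAs (difference 2.58 percentage points, exact permutation p = 0.0286, adjusted p = 0.248). In WT TILs it was 10.25%, 10.54%, 10.32% and 8.27% in CD4 and 10.53%, 12.9%, 11.96% and 13.2% in CD8 replicates 1 to 4, where CD8 replicate 1 met the highest CD4 library (difference 2.28 percentage points, exact permutation p = 0.0571, adjusted p = 0.330).

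In Sirt2-/- TILs the shares of mt-Nd2 (5.66% in CD8 and 4.70% in CD4), mt-Nd4 (7.25% and 5.77%) and mt-Nd3 (0.332% and 0.168%, an uncertain gene) were also higher in every CD8 library. The share of mt-Nd6 was lower in every one of them (1.58% ± 0.17 in CD8 and 2.79% ± 1.11 in CD4, SD, n = 4, exact permutation p = 0.0286, adjusted p = 0.248). Sirt2-/- CD4 replicate 4, where mt-Nd3 was at 0, enlarged these differences. Without it the difference of means went from 1.48 to 0.846 percentage points for mt-Nd4, from 0.163 to 0.107 for mt-Nd3 and from -1.21 to -0.672 for mt-Nd6. In WT TILs the mt-Nd6 share was 2.36%, 2.52%, 2.33% and 4.57% in CD4 and 2.58%, 1.74%, 1.54% and 1.52% in CD8 replicates 1 to 4, so CD8 replicates 2 to 4 were below all CD4 libraries and replicate 1 was among them. Replicate 4 of both CD4 groups had the highest mt-Nd6 shares, 4.57% in WT and 4.41% in Sirt2-/- mice. Between genotypes the smallest p was that of mt-Co1 in CD8 TILs (34.6% in Sirt2-/- and 32.3% in WT, exact permutation p = 0.0571, adjusted p = 0.330).

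**Figure D4:**
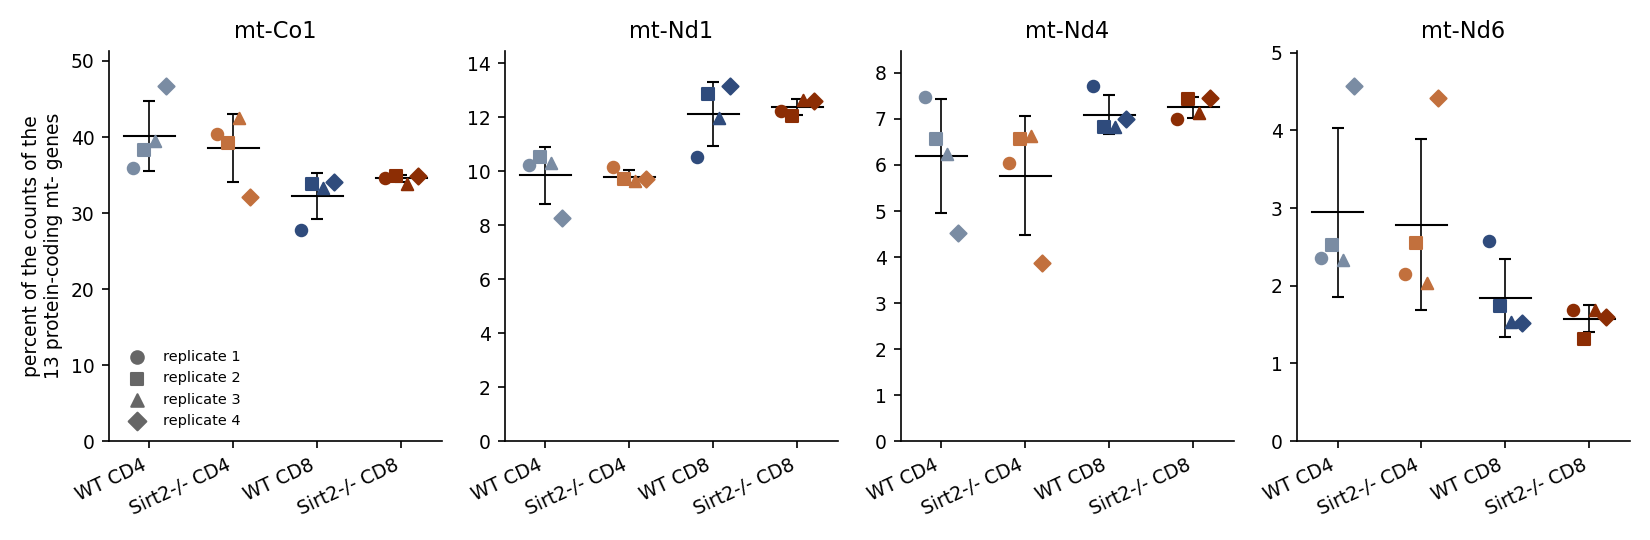
Share of mt-Co1, mt-Nd1, mt-Nd4 and mt-Nd6 in the summed counts of the 13 protein-coding mt- genes. Each symbol is a library, shapes mark the replicate number, and bars give mean and SD (n = 4). mt-Co1 is lower in all WT CD8 than in all WT CD4 libraries, and mt-Nd1 is higher in all Sirt2-/- CD8 than in all Sirt2-/- CD4 libraries.

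The nuclear partners of these genes were compared in the same fits, as lists chosen with earlier results of these data known. The list named respiratory chain here also holds the nuclear subunits of ATP synthase, which is complex V. Nuclear subunits of the respiratory chain were higher in CD8 than in CD4 TILs in 10 of 78 tested genes (12.8%) in WT mice and lower in 0, against 4.89% of all genes higher, and their median log2 fold change was 0.41 against -0.02 over all genes. In Sirt2-/- TILs the median log2 fold change was 0.68 against 0.16. There 2 of 78 (2.56%) were higher, against 0.918% of all genes, and 0 were lower, against 1.32%. The count rose to 38 of 78 in WT without WT CD4 replicate 1 and WT CD8 replicate 1 (48.7%, against 14.9% of all genes) and to 53 of 78 in Sirt2-/- TILs without CD4 replicate 4 (67.9%, against 13.8%). The medians were then 0.51 in WT and 0.57 in Sirt2-/- TILs, against 0.0067 and -0.0042 over all genes. Atp5b, the catalytic subunit of ATP synthase, was called higher in both genotypes (log2 fold change 0.64 ± 0.13 SE, edgeR adjusted p = 0.00906 in WT, and 0.75 ± 0.09 SE, edgeR adjusted p = 0.00637 in Sirt2-/- TILs). Atp5b was picked from the called genes after its values were seen. The calls in WT TILs also included Atp5c1, Atp5f1 and Atp5h of ATP synthase.

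Proteins of the mitochondrial ribosome, which bind mt-Rnr1 and mt-Rnr2, were called higher in CD8 for 6 of 77 genes (7.79%, against 4.89% of all genes) and lower for 0 in WT TILs. Their median log2 fold change was 0.44 against -0.02 over all genes. In Sirt2-/- TILs 0 of 77 were called by edgeR, against 0.918% of all genes higher and 1.32% lower, and the median was 0.79 against 0.16. An unadjusted edgeR p below 0.05 was seen for 3, all higher, against 835 higher and 1007 lower of 15787 genes tested. Without the libraries with few genes 38 of 77 were higher in WT (49.4%, against 14.9% of all genes) and 40 of 77 in Sirt2-/- TILs (51.9%, against 13.8%), and 0 were lower in either. Their median log2 fold changes were then 0.58 in WT and 0.55 in Sirt2-/- TILs, against 0.0067 and -0.0042 over all genes.

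Of 44 nuclear genes for mitochondrial transcription, replication, RNA processing and decay, 43 were found in the table by symbol and tested. In WT TILs 3 were higher in CD8 (6.98%, against 4.89% of all genes) and 1 was lower (2.33%, against 6.96%). Without the libraries with few genes 10 were higher in WT (23.3%, against 14.9% of all genes) and 2 lower, and in Sirt2-/- TILs 9 were higher (20.9%, against 13.8%) and 2 lower, where 13.1% and 11.6% of all genes were lower. Lrpprc, whose protein binds and stabilizes mitochondrial mRNAs, measured 45.2 ± 12.0 CPM in CD4 and 111 ± 13.2 CPM in CD8 libraries (SD, n = 4), without overlap (log2 fold change 1.20 ± 0.24 SE, edgeR adjusted p = 0.00789). In Sirt2-/- TILs Lrpprc measured 39.8 ± 26.8 and 104 ± 4.80 CPM (SD, n = 4), also without overlap (log2 fold change 1.42 ± 1.19 SE, edgeR adjusted p = 0.855). Without Sirt2-/- CD4 replicate 4 it was called there too (0.99 ± 0.095, SE, edgeR adjusted p = 6.41e-05).

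Ssbp1, the single-stranded DNA-binding protein of mitochondria, had a log2 fold change of 0.70 ± 0.17 (SE, edgeR adjusted p = 0.0229) and Ptcd2, a pentatricopeptide repeat protein, of 0.66 ± 0.17 (SE, edgeR adjusted p = 0.0278) in WT CD8 against CD4 TILs. Polg, the mitochondrial DNA polymerase, was lower (-1.22 ± 0.25, SE, edgeR adjusted p = 0.00961). The call of Ssbp1 was lost without WT CD8 replicate 3 or 4 (edgeR adjusted p = 0.0651 and 0.0725), and that of Ptcd2 without WT CD4 replicate 2 or 3 or WT CD8 replicate 2, 3 or 4 (edgeR adjusted p from 0.0538 to 0.0930). None of the 4 genes was called with all 16 libraries in 1 model (edgeR adjusted p from 0.116 to 0.605).

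Tfam, which packages mitochondrial DNA and starts its transcription, and Polrmt, the mitochondrial RNA polymerase, were not called in any comparison. Between CD8 and CD4 TILs the log2 fold change of Tfam was 0.27 ± 0.22 in WT and 0.11 ± 0.17 in Sirt2-/- TILs, and that of Polrmt was -0.40 ± 0.28 and -0.38 ± 0.42 (SE). Without the libraries with few genes the values of Polrmt were 0.046 and 0.074.

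With all libraries edgeR called no gene of the machinery between CD8 and CD4 in Sirt2-/- TILs, where the 3 with the smallest p were Tbrg4 (1.67), Polg2 (-1.62) and Polg (-0.81), as log2 fold changes. Without Sirt2-/- CD4 replicate 4 all 3 were called, Tbrg4 at 1.31 (edgeR adjusted p = 0.000138), Polg2 at -1.03 (edgeR adjusted p = 0.0102) and Polg at -1.15 (edgeR adjusted p = 0.000106), and DESeq2 called Polg2 with all libraries (adjusted p = 0.0253). None was called by edgeR between genotypes. The 3 with the smallest p there were Ssbp1 (1.40), Pnpt1 (0.66) and Ptcd2 (0.58) in CD4 and Top1mt (-0.38), Slirp (0.51) and Mto1 (-0.26) in CD8 TILs, as log2 fold changes with edgeR adjusted p of at least 0.986. The CD4 values rested on Sirt2-/- CD4 replicate 4, and without it they were 0.33 for Ssbp1, 0.32 for Pnpt1 and 0.30 for Ptcd2.

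**Figure D5:**
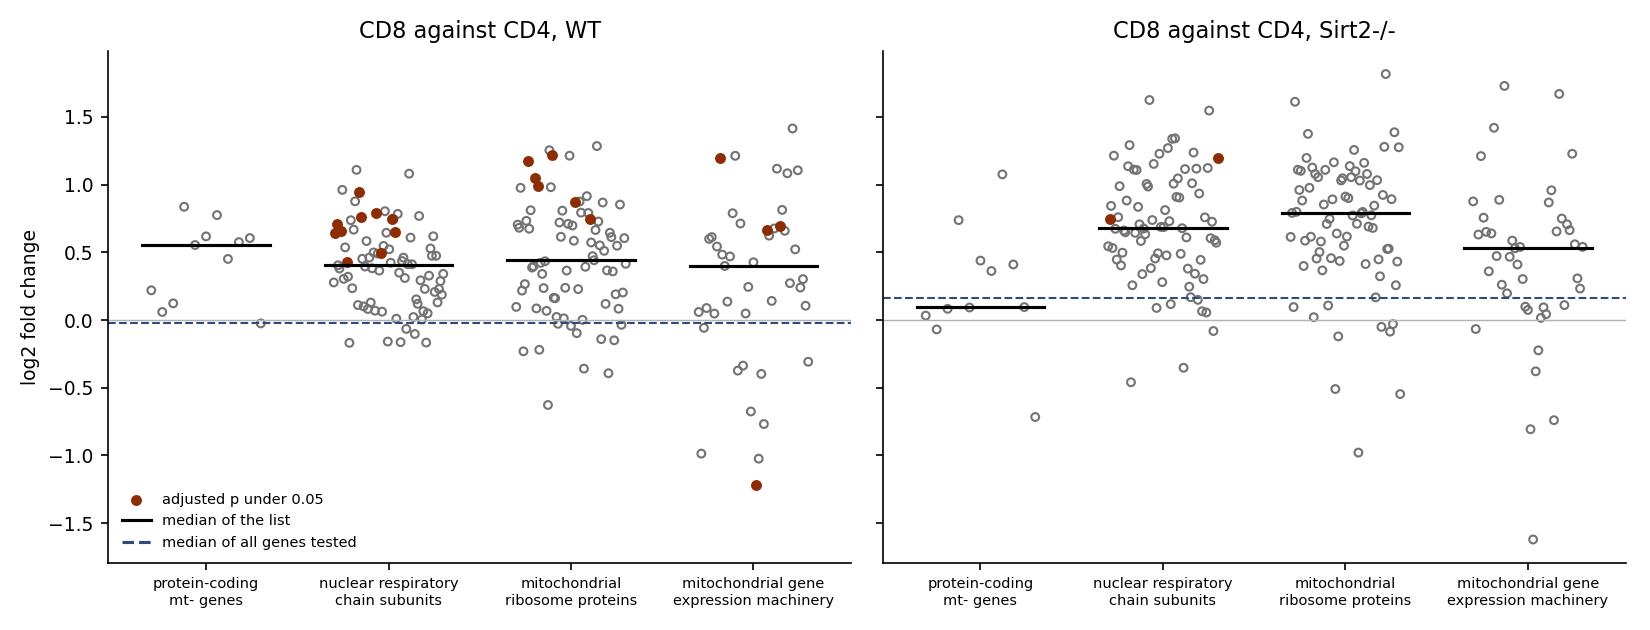
Log2 fold change of CD8 against CD4 TILs for the protein-coding mt- genes that passed the filter and for the 3 nuclear lists, each point a gene in alphabetical order within its list. Filled points passed edgeR at an adjusted p below 0.05, black lines are list medians and the dashed line is the median of all genes tested. The filled points are 0 mt- genes, 10 respiratory chain subunits, 6 ribosomal proteins and 4 genes of the machinery in WT, and 2 respiratory chain subunits in Sirt2-/- TILs.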

How the data were processed

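RNA of CD4+ and CD8+ TILs was made into strand-specific, rRNA-depleted libraries and sequenced as 100-base read pairs. The authors deposited raw counts per gene. The submitters' processing notes name STAR, HTSeq and the mm10 build, and versions, strand setting and treatment of reads with several positions were not given in the sources used here. All 55450 identifiers matched GENCODE M21, which gave lengths, GRCm38 coordinates and transcript sequences. CPM was computed from the counts on genes of a library, and RPKM, used for levels between genes, from CPM and gene length.

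Groups came from the sample labels. Each comparison was fitted with edgeR 4.0.16 (R 4.3.3; TMM, filterByExpr, robust quasi-likelihood F-test) on its own 8 libraries, and the interaction on all 16, with Benjamini-Hochberg adjustment over all genes tested and a threshold of 0.05. Shares were tested with exact two-sided permutation of 70 assignments, in code checked against SciPy 1.17.1. Near-identical copies were found with BLAST 2.17.0 (identity of at least 90% over at least 200 bases). The fits and permutation tests were tested on simulated data. Total counts of 28000949 to 62407851 per library leave counting error small for the rRNAs and the 7 well-counted mRNAs and large for tRNAs. DESeq2 1.42.0, other normalizations, no filter, a replicate block and leaving out libraries were tried as alternatives.

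The members and gene lists were chosen with earlier results of these data known. The genes named were the rRNA and protein-coding mt- genes, tRNA genes with a median above 100 counts or called, Sirt2, Cd4, Cd8a, Cd3e, Tfam, Polrmt, Lrpprc, and of the machinery the called genes or, where none was called, the 3 with the smallest p. Atp5b was named after its values were seen.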

Additional observations from a re-analysis of the deposited data

Results flagged for a closer look

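A library was listed when its distance from the nearest of the other 3 libraries of its group, relative to the range of the group, passed Dixon's 95% value. Of 112 groups of 4 values tested, 16 (14.3%) had such a library, where chance gives about 1 in 20, and the measures are not independent of each other. WT CD8 replicate 1 accounted for 11 of them.

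In WT CD8 replicate 1 protein-coding mt- genes took 1.304% of counts, against 0.414% to 0.565% in the other 3 libraries, and tRNA genes 0.00466%, against 0.00120% to 0.00168%. Complex I genes made up 53.3% of its mitochondrial mRNA counts (49.56% to 49.99% in the others) and complex IV genes 27.7% (33.4% to 34.2%). Of complex IV, mt-Co1 alone made up 27.71%, and the uncertain genes mt-Co2 and mt-Co3 added almost nothing. The complex I sum likewise includes the uncertain genes mt-Nd3 and mt-Nd4l. Minus-strand genes made up 0.346% of the mitochondrial counts of this library (0.163% to 0.193% in the others). In CPM it had 969 for mt-Nd2 (210 to 322 in the others), 1005 for mt-Nd4 (282 to 395), 3241 for mt-Nd5 (953 to 1294), 336.5 for mt-Nd6 (72.1 to 86.0), 2478 for mt-Cytb (676 to 894) and 1.99 for mt-Co2 (0.786 to 0.930).

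The mt-Nd6 share of mitochondrial mRNA counts was 4.57% in WT CD4 replicate 4 and 2.34% to 2.52% in the other WT CD4 libraries. mt-Ty was at 0 CPM in Sirt2-/- CD4 replicate 4 (14.9 to 17.3 in the others) and at 12.1 CPM in WT CD8 replicate 4 (8.08 to 8.62). mt-Nd4l had 0.0984 CPM in Sirt2-/- CD4 replicate 2 and 0 in the others, and mt-Atp8 had 0.0702 CPM in Sirt2-/- CD4 replicate 3 (0.0160 to 0.0246), both from a few counts.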

How the results depend on the processing

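Of the log2 fold changes of named genes under the alternatives, 611 kept their direction and side of the threshold, 53 changed sign, 15 gained and 16 lost a call, and the cause was not tested. The number of all genes called changed with DESeq2 to 7 (genotype, CD4), 28 (genotype, CD8), 2651 (cell type, WT), 1339 (cell type, Sirt2-/-) and 2 (interaction). It changed to 5 for genotype in CD8 TILs without a filter, and to 811 and 781 for cell type in WT and Sirt2-/- TILs with all 16 libraries in 1 model.

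Without the 3 libraries with few genes, all genes called were 6, 7, 4394 and 4250 in the same order of the first 4 comparisons, and mt- genes called were 2 for cell type in WT and 1 in Sirt2-/- TILs. Log2 fold changes that then changed sign were mt-Nd6 for genotype in CD4 (-0.14), mt-Rnr1 (0.24), mt-Rnr2 (0.26), mt-Co1 (0.24) and mt-Nd6 (0.20) for genotype in CD8, mt-Co1 (-0.15) and Polrmt (0.046) for cell type in WT, Polrmt (0.074) for cell type in Sirt2-/- TILs and the mt-Nd6 interaction (0.34). The log2 ratio of the summed tRNA share moved to 0.24 and 0.22 for genotype in CD4 and CD8 and to -0.35 for cell type in Sirt2-/- TILs.

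mt-Nd6 between cell types in WT TILs (-0.02 with all libraries) changed sign with values near 0 under 6 alternatives, namely 0.0082 with DESeq2, 0.0080 with its size factors in edgeR, 0.021 with upper quartile scaling, 0.029 with normalization without mt- genes, 0.044 without a filter and 0.041 with all libraries in 1 model. mt-Ty between cell types in Sirt2-/- TILs was 5.2e-05 with all libraries in 1 model.

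Residual correlations between libraries of the same replicate number were 0.119, 0.109, 0.118 and 0.067 for CD4 and CD8 libraries of WT mice, 0.133, 0.029, -0.014 and -0.009 for those of Sirt2-/- mice, and -0.072 to 0.077 between genotypes. No comparison had every pair above 0.1, so the numbers were not taken to pair samples. As a hint from the data and not the labels, the Y-linked genes summed to 63.4, 306, 10.8 and 8.94 CPM in WT CD4 and 59.4, 271, 15.9 and 6.07 CPM in WT CD8 replicates 1 to 4. With the replicate block, genes called were 4 for genotype in CD8 and 108 for cell type in Sirt2-/- TILs, mt- genes called stayed at 0 in every comparison, and Atp5b in Sirt2-/- (edgeR adjusted p = 0.0532) and Ssbp1 in WT TILs (edgeR adjusted p = 0.0633) were not called between cell types. With the block, mt-Rnr2 was 0.0018 for genotype in CD8, mt-Co1 -0.017 for cell type in WT and mt-Ty 0.59 for cell type in Sirt2-/- TILs.

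Leaving out 1 library at a time gave, for cell type in Sirt2-/- TILs, 111 to 4250 genes and 0 to 1 mt- genes called, mt-Co1 from -0.26 to 0.050, mt-Ty from -0.45 to 0.19, Polrmt from -0.55 to 0.074 and the tRNA log2 ratio from -0.35 to 0.30. For cell type in WT it gave 1022 to 2767 genes and 0 to 1 mt- genes called, mt-Co1 from -0.24 to 0.28, mt-Nd6 from -0.82 to 0.26, mt-Rnr1 from -0.49 to 0.0065 and mt-Rnr2 from -0.42 to 0.060. For genotype in CD4 it gave a difference in mt-Co1 share from -2.92 to 0.657 percentage points, mt-Co1 from -0.045 to 0.17, mt-Nd6 from -0.16 to 0.30, mt-Rnr2 from -0.10 to 0.14 and the tRNA log2 ratio from -0.57 to 0.073. For genotype in CD8 it gave 0 to 7 genes called, mt-Co1 from -0.32 to 0.24, mt-Nd6 from -0.85 to 0.20, mt-Rnr1 from -0.29 to 0.24, mt-Rnr2 from -0.20 to 0.26 and the tRNA log2 ratio from -0.62 to 0.22. The mt-Nd6 interaction ranged from -0.97 to 0.086. Counts of a few reads limit most tRNA genes, mt-Atp8 and mt-Nd4l.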
